A study of Mus musculus with 59 samples.

Results

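At 1156 sites of the liver genome, BCL6 and PPARα both had a ChIP-seq peak in fed C57BL/6 mice and neither had one after fasting. These sites were selected on the peak calls themselves. A fed BCL6 peak was taken if no fasted BCL6 peak and no fasted PPARα peak had its center within 200 bp of its own, and if a fed PPARα peak did. They were 1156 of 15642 fed BCL6 peaks, or 7.39%, and 1156 of the 10956 fed BCL6 peaks with a fed PPARα peak, or 10.6%. ChIP-seq was done on livers of male C57BL/6 mice of genotype WT, with antibodies against BCL6, PPARα or PPARδ, from mice fed ad libitum or kept without food overnight. BCL6 was also mapped in fed male C57BL/6 mice of the genotype *Bcl6* fl/fl, whose *Bcl6* alleles carry loxP sites and are intact without Cre. Each group had 3 biological replicates, 1 animal each by the study's methods, which the authors combined into 1 peak list, and the ages of the mice were not given in the sources used here. The lists hold positions only, with no height or read count, so a site is either called or not called in a group and no value carries an error between animals. "Lost" below means that no peak was called within 200 bp after fasting, which in whole liver cannot tell fewer bound cells from less binding per cell, and a drop to just under the calling threshold from a complete one.

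BCL6 is a zinc finger repressor, best known from germinal center B cells, that recruits corepressors and histone deacetylases to its target genes. In the liver its level is under the control of growth hormone and STAT5, and its binding element resembles the STAT element. PPARα is the nuclear receptor that switches on fatty acid oxidation and ketone body production in the fasted liver. It binds as a heterodimer with RXR to a DR1 element, a direct repeat of the hexamer AGGTCA with 1 base between the copies, and PPARδ, its close relative, recognizes the same kind of element. HNF4α, HNF6 and FOXA factors are liver transcription factors that help to define which enhancers are open in hepatocytes.

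The sequences below show what both elements look like at sites that lost both factors. They are the sites that held a BCL6 element (TTCCTAGAA with at most 1 mismatch) and a DR1 element (AGGTCANAGGTCA with at most 2 mismatches), were also in the *Bcl6* fl/fl list, and lay clear of annotated exons. Of the 1156 sites, 12 held both elements, 6 of these were in the *Bcl6* fl/fl list, and 5 of those are shown. Each is the reference sequence of the fed BCL6 peak on the plus strand of mm10, 217 bases, named for the nearest protein-coding start, with both elements in capitals.

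Gstm3 site, chr3:107966758-107966974: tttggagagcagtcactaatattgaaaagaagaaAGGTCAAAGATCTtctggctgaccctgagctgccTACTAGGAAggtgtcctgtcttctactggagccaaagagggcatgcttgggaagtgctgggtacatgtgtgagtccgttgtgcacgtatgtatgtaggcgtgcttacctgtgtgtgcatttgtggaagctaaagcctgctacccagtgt
Neurl1a site, chr19:47248462-47248678: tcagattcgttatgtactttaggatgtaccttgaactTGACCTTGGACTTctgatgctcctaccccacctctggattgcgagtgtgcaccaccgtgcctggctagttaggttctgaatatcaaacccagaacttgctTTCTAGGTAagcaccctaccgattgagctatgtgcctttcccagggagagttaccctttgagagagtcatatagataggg
Gadd45a site, chr6:66996368-66996584: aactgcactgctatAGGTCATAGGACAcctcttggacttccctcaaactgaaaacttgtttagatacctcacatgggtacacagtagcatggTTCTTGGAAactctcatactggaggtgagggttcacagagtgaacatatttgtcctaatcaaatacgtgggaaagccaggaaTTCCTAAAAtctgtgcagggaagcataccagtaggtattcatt
Pakap site, chr4:57513268-57513484: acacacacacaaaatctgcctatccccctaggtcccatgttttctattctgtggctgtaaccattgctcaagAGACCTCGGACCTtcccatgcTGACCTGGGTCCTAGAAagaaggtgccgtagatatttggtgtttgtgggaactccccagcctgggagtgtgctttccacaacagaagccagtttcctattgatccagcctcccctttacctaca
Adar site, chr3:89657106-89657322: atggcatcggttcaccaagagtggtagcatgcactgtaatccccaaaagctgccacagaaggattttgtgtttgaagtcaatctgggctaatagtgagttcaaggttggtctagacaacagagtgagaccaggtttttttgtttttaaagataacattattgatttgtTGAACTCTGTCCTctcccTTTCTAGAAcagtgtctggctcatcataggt

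In the *Gstm3* site, in intron 5 of a glutathione transferase gene, the DR1 element came first and the BCL6 element lay 32 bp from it, measured from middle to middle, and 3 bp from the center of the fed PPARα peak. The *Neurl1a* site, in intron 3 of a ubiquitin ligase gene, had its elements 98 bp apart, with the DR1 element 2 bp from the PPARα center. The site nearest to *Gadd45a*, a DNA damage response gene, lay in intron 2 of *Gng12* and was the only one of the 5 with a fed PPARδ peak. It held a second BCL6 element, and its DR1 element had 1 mismatch where those of the other sites had 2. At the *Pakap* site 1 of its DR1 matches overlapped the BCL6 element, so that the capitals join. The site nearest to *Adar* lay in intron 5 of *Kcnn3*, and its elements were 16 bp apart. Such sites were the exception, and 894 of the 1156 (77.3%) held neither element. That was not particular to them. Neither element was found in 79.2% of the fed BCL6-PPARα sites that lost BCL6 only. The share was 63.7% where PPARα only was lost and 75.3% where both were kept. Both elements together were in 1.04% of the 1156 sites, and in 1.20%, 2.78% and 1.75% of those classes.

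The calls that chose the sites describe how common this pattern was. In fasted livers 51.1% of all fed BCL6 peaks and 20.1% of all fed PPARα peaks had no call, although the PPARα list grew from 21410 peaks in fed to 29085 in fasted livers while the BCL6 list fell from 15642 to 9613. Among the 10956 fed shared sites, 5946 kept both factors, 3422 lost BCL6 only, 432 lost PPARα only, and 1156 lost both. PPARα was lost at 25.3% of the sites that lost BCL6 (95% Wilson interval 24.0% to 26.5%) and at 6.77% of those that kept it (6.18% to 7.42%). These shares come from the calls used by the rule, so they are a description with no test. The sites were spread over 20 chromosomes, from 7.98% of the fed shared sites on chromosome 4 to 12.7% on chromosome 13.

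Few of the lost sites were near misses of the 200 bp distance. The nearest fasted BCL6 peak was a median of 33692 bp away, and 2 sites had one between 201 and 250 bp. The nearest fasted PPARα peak was a median of 9654 bp away, and 15 sites had one between 201 and 250 bp. Just outside the rule, 2 sites had a fasted BCL6 center and 44 a fasted PPARα center 150 to 200 bp away, with the other conditions met. For the fed PPARα condition, 13 sites had a center 150 to 200 bp away, and 12 fed BCL6 peaks just outside had one 201 to 250 bp away. In fed livers the 2 centers lay a median of 31.0 bp apart (quartiles 15.0 and 58.0 bp), and 7.44% were at least 100 bp apart, against 3.04% where both factors were kept.

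Many of the lost sites were not called in a separate group of fed mice either. In fed *Bcl6* fl/fl livers, 78.0% of all fed shared sites had a BCL6 peak, but only 573 of the 1156 lost sites did, 49.6% (46.7% to 52.4%). The share was 64.8% at sites that lost BCL6 only, 88.4% at sites that lost PPARα only, and 90.4% at sites that kept both. Each difference passed the two-sided Fisher's exact test, with adjusted p = 2.19e-19, 6.42e-50 and 1.09e-205 in that order, and the lost sites had the lower share on all 20 chromosomes in each comparison. These p-values, adjusted by the Benjamini-Hochberg method over 12 comparisons, treat sites as units, and sites are not replicates of a condition. The classes that kept BCL6 were chosen by a second BCL6 call, so their higher share in another BCL6 list was partly set by that choice. The comparison with sites that lost BCL6 only does not rest on such a call. Fed BCL6 peaks that were lost on fasting and had no fed PPARα peak, 3408 in all, had a *Bcl6* fl/fl call at 37.8% (36.2% to 39.4%). The remaining 583 lost sites thus rest on the fed C57BL/6 list alone for BCL6, and some of the values below are given for the 573 as well.

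A PPARδ peak was seldom called at the lost sites. In fed livers 36.5% of all fed shared sites had a PPARδ peak, but 105 of the 1156 lost sites did, 9.08%. Sites that lost BCL6 only had one at 31.4% (odds ratio of the lost sites against them 0.218, adjusted p = 6.21e-58) and sites that kept both at 46.6% (odds ratio 0.114, adjusted p = 2.75e-146). Sites that lost PPARα but kept BCL6 had one at 11.1%, and the difference did not pass the test (odds ratio 0.799, adjusted p = 0.274 by Fisher's exact test), and the lost sites were lower on 11 chromosomes and higher on 9. With centers matched within 100 bp this last difference passed, 9.28% against 16.1% (adjusted p = 9.73e-05 by Fisher's exact test). The classes that kept PPARα were chosen by a second PPARα call. PPARδ recognizes the same kind of element, and in the study most PPARδ sites overlapped PPARα sites. The higher PPARδ shares of those classes may thus be partly set by that choice. The comparison with sites that lost PPARα only does not rest on such a call. Among the lost sites, PPARδ was more frequent at those called in *Bcl6* fl/fl livers, 64 of 573 (11.2%), than at the others, 41 of 583 (7.03%), with an odds ratio of 1.66 and p = 0.0182 by Fisher's exact test, unadjusted. The other classes had the same direction, so it was not particular to the lost sites. The shares were 36.8% and 21.4% where BCL6 only was lost, 12.0% and 4.00% where PPARα only was lost, and 48.5% and 29.2% where both were kept.

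After fasting nearly all of the lost sites lacked PPARδ too. A fasted PPARδ peak was present at 8.95% of all fed shared sites and at 3 of the 1156 lost sites, 0.260% (0.0883% to 0.760%). The share was 6.78% where BCL6 only was lost and 12.5% where both were kept (adjusted p = 8.41e-26 and 2.56e-55), but 0.463% where PPARα only was lost (adjusted p = 0.618 by Fisher's exact test). Within 100 bp this last comparison passed as well, 0.575% against 2.46% (adjusted p = 0.00221 by Fisher's exact test). The classes that kept PPARα were chosen by a fasted PPARα call, and in the study most PPARδ sites overlapped PPARα sites. Their higher shares of fasted PPARδ may thus be partly set by that choice. Fed BCL6 peaks that were lost on fasting and had no fed PPARα peak had a fasted PPARδ peak at 0.293% (0.159% to 0.539%). Of the 105 lost sites with a fed PPARδ peak, 2 (1.90%) had one in fasted livers, with an interval of 0.524% to 6.68%. The share was 2 of 48 (4.17%, 1.15% to 14.0%) among the PPARδ sites that lost PPARα only, and the intervals overlap. It was 18.1% (15.9% to 20.5%) among those that lost BCL6 only and 24.0% (22.4% to 25.6%) among those that kept both. These shares were compared with no test. At the 573 lost sites called in *Bcl6* fl/fl livers the share with a fasted PPARδ peak was 0.175%. The 3 lost sites with a fasted PPARδ peak were named after their values were seen. The first lay at chr2:27596352-27596568, 80741 bp upstream of *Rxra*, the gene for the PPAR heterodimer partner, and also had PPARδ in fed livers. The second, at chr4:45523926-45524142 in intron 1 of *Shb*, an adaptor protein gene, had fed PPARδ and a *Bcl6* fl/fl call. The third, at chr9:50723536-50723752 in intron 1 of *Dixdc1*, a Wnt pathway gene, had a PPARδ peak in fasted livers only.

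**Figure D1:**
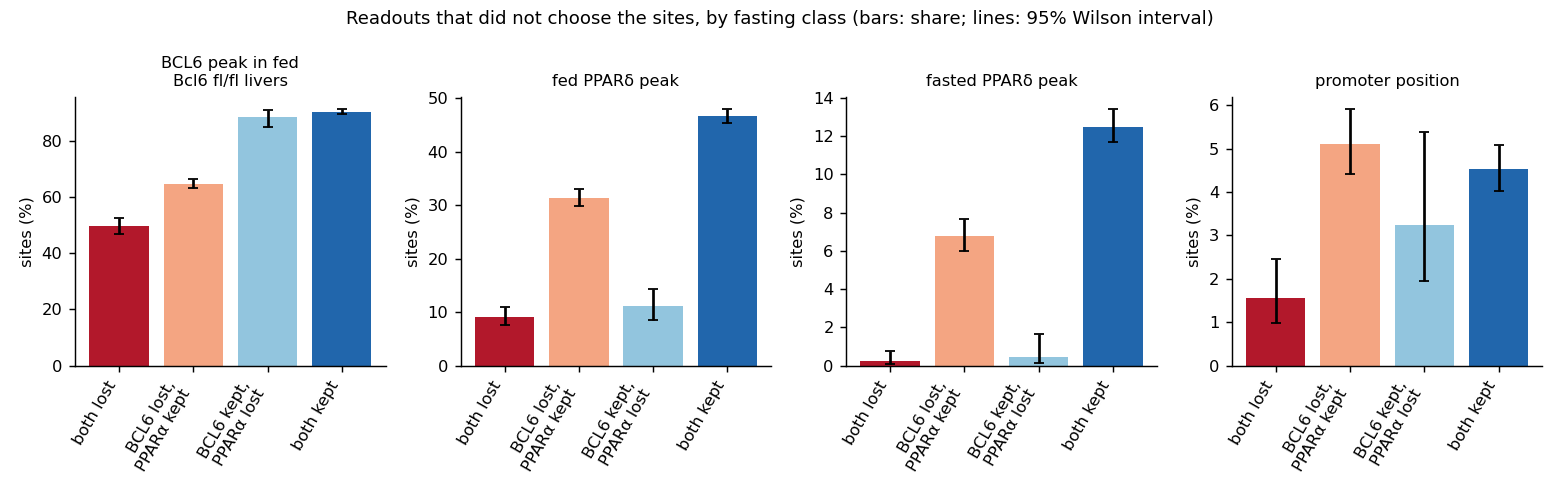
Share of sites (%) with a fed *Bcl6* fl/fl BCL6 peak, a fed PPARδ peak, a fasted PPARδ peak, or a promoter position, for sites that lost both factors (n = 1156), BCL6 only (n = 3422), PPARα only (n = 432) or neither (n = 5946), each panel with its own axis from 0. Lines are 95% Wilson intervals, and sites that lost both had the lowest bar in all 4 panels (49.6%, 9.08%, 0.260% and 1.56%), with PPARα only close to it in both PPARδ panels (11.1% and 0.463%).

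Like the sites of the other classes, the lost sites lay mostly outside promoters. Promoters, taken to reach from 1000 bp before a transcription start to 100 bp after it, held 4.34% of all fed shared sites and 18 of the 1156 lost sites, 1.56%. Sites that lost BCL6 only lay in promoters at 5.11% and sites that kept both at 4.52%, and both differences passed Fisher's exact test (adjusted p = 3.34e-08 and 4.12e-07). Against the sites that lost PPARα only, at 3.24%, the difference did not pass (adjusted p = 0.0522). The odds ratios of the lost sites were 0.293 against sites that lost BCL6 only and 0.334 against sites that kept both. With a wider window, from 5000 bp upstream to 1000 bp downstream, the shares were 9.69%, 13.9% and 14.2% and the odds ratios moved to 0.662 and 0.648, still past Fisher's exact test (adjusted p = 2.20e-04 and 3.32e-05). Sites that lost PPARα only were at 10.6% in that window, and the difference did not pass Fisher's exact test (odds ratio 0.900, adjusted p = 0.618). Among sites called in *Bcl6* fl/fl livers the share of the lost sites was 2.27%, against 5.96% where BCL6 only was lost (adjusted p = 4.56e-04) and 4.35% where both were kept (odds ratio 0.510, adjusted p = 0.0300 by Fisher's exact test). It was 3.66% where PPARα only was lost, and that difference did not pass Fisher's exact test (adjusted p = 0.400). Genes outside the promoter window held 50.1% of the lost sites and intergenic DNA 48.4%, against 50.9% and 44.6% of the sites that kept both. By the longest RefSeq transcript over each center, 554 sites were in introns and 30 in exons. The nearest protein-coding start was a median of 39030 bp away, against 24792 to 28654 bp in the other classes, and 5 sites had none within 1 Mb.

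The 18 promoter sites, whose genes are named here after their values were seen, were at genes of several kinds. Transporter genes included *Slco1a1* (a bile acid and organic anion transporter), *Slc22a27*, *Slc16a12* and *Slc25a10* (the mitochondrial dicarboxylate carrier). Genes of detoxification and steroid metabolism were *Cyp2f2*, *Ugt2a3*, *Sult2a3* and *Akr1c14*. *Mup3* encodes a major urinary protein, and *Pdk1* a kinase that shuts off pyruvate dehydrogenase. The *Pdk1* site lay in intron 1, 769 bp downstream of the nearest start, and was counted because it lay 911 bp upstream of a second curated start of the same gene. Further genes were *Rab3gap2*, *Tgtp1*, *Retreg1*, *Fam234a*, *D5Ertd579e*, *Ing4* and *Dctn6*. The nearest to its start was the *Ugt2a3* site at chr5:87337072-87337288, centered 15 bp downstream of the start in exon 1. The *Slco1a1* site at chr6:141947662-141947878, 808 bp upstream, and the *Tgtp1* site at chr11:48992275-48992491, 137 bp upstream, each held a BCL6 element and a STAT element, as did the *Retreg1* site. Of the 18, 13 were called in *Bcl6* fl/fl livers, where 49.6% of all lost sites were, and the *Retreg1* site was 1 of the 9.08% of lost sites with a fed PPARδ peak. Several of these genes belong to families with near-identical copies (*Mup*, *Sult2a*, *Akr1c*), and the authors kept only reads with a single place in the genome, so peaks there are uncertain.

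The lost sites stood apart from the sites that kept both factors. The nearest kept site was a median of 72256 bp away, against 41300 bp for sites that lost BCL6 only, 39626 bp for sites that lost PPARα only and 19059 bp from one kept site to the next. A kept site lay within 10000 bp of 20.3% of the lost sites and of 37.4% of the kept ones. These distances are a description with no test. At the level of genes the separation was partial. Of 1151 lost sites with a protein-coding start within 1 Mb, 650 (56.5%) had as their nearest gene one that was also nearest to a site that kept both. The corresponding share was 58.5% for sites that lost BCL6 only and 61.3% for those that lost PPARα only, and 69.8% of the kept sites shared their gene with another kept site. The 1151 sites were nearest to 982 genes, of which 843 had 1 lost site and 22 had 3 or more, and 525 also had a kept site.

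**Figure D2:**
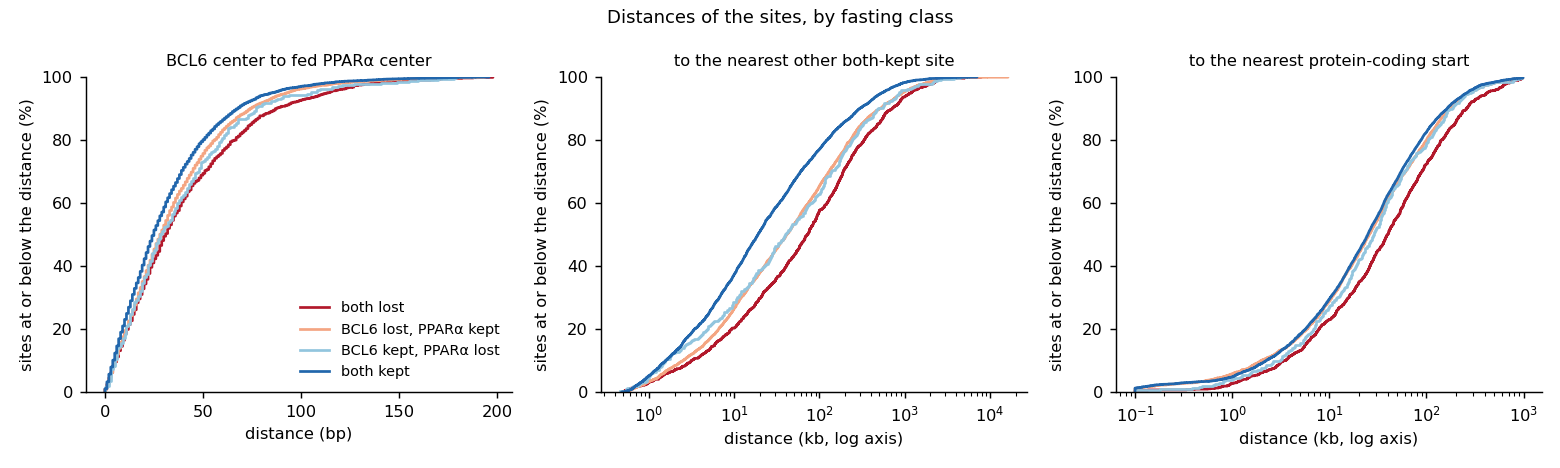
Cumulative share of sites (%) against the distance of the BCL6 center to the fed PPARα center (bp, linear axis), to the nearest other site that kept both factors and to the nearest protein-coding start (kb, log axes), for the 4 fasting classes. The curve of sites that lost both factors lies farthest right in the last 2 panels, with medians of 72256 bp and 39030 bp against 19059 bp and 24792 bp for sites that kept both.

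At 323 genes all of the fed shared sites were lost, but for most of these genes that was a single site. The same count was not made for the other classes, and 10.6% of all fed shared sites were lost. Of the 323 genes, 24 had at least 2 such sites, and *Tcp11*, a testis gene, had 3. *Rcan1*, the calcineurin inhibitor, *Adgrf5*, *Camk2b*, *Cdkal1* and *Magi2*, named here after their values were seen, were among those with 2. A nearest gene is a label of position, and the data do not show which gene a site acts on.

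The 5 genes with the most lost sites were *Pik3r1* with 6, *Mpdz* with 5, and *Cntnap5b*, *Foxa2* and *Nrp1* with 4 each. *Pik3r1* encodes the regulatory p85 subunit of the phosphatidylinositol 3-kinase that carries the insulin signal. Its lost sites ran from chr13:101555481-101555697, 137041 bp downstream of the start, to chr13:101997507-101997723, 229398 bp upstream, and 1 lay in intron 1 at chr13:101762822-101763038. The same gene had 11 sites that kept both factors and 3 that lost BCL6 only. *Foxa2*, a pioneer factor of hepatocytes, had its 4 lost sites 113313 to 322553 bp downstream of the start, 3 of them close together between chr2:147926854-147927070 and chr2:147932043-147932259, beside 9 sites that kept both. *Mpdz*, a scaffold protein gene, had 5 intergenic lost sites, 4 of them called in *Bcl6* fl/fl livers, and 2 sites that kept both. All 4 sites at *Cntnap5b*, a neuronal adhesion gene, were called in *Bcl6* fl/fl livers, 2 had a fed PPARδ peak, and the gene had no site that kept both. *Nrp1*, a co-receptor for VEGF and semaphorins, had 1 lost site in intron 2, at chr8:128382226-128382442, 3 intergenic ones, and 5 sites that kept both.

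Among 9 lists of liver genes, the share of fed shared sites that were lost ranged from 4.00% to 18.2%, against 10.6% over all fed shared sites. The Wilson interval of every list included 10.6%, so none of the shares can be told from the background at these counts. Genes of fatty acid oxidation and ketogenesis had 6 lost sites of 99, or 6.06% (2.81% to 12.6%), while 67 of the 99 kept both factors and 24 lost BCL6 only. A lost site at chr16:21781388-21781604 lay in intron 1 of *Ehhadh*, the peroxisomal bifunctional enzyme, 6338 bp from the start, and a second one 44069 bp upstream. *Hadh*, an enzyme of mitochondrial β-oxidation, had one at chr3:131279308-131279524, 7315 bp upstream, with a BCL6 element and a *Bcl6* fl/fl call. The site at *Abcd2*, a peroxisomal fatty acid transporter, lay in exon 1 at chr15:91190957-91191173, 942 bp from the start. The site of *Acaa2*, the thiolase of mitochondrial β-oxidation, was in intron 1, 2670 bp from the start. Lipogenesis and glycerolipid synthesis had 3 lost sites of 54 (5.56%, 1.91% to 15.1%), at *Fads1* (a desaturase, 1486 bp upstream), *Acss2* (acetyl-CoA synthetase, intron 2) and *Elovl6* (a fatty acid elongase, 81500 bp upstream).

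Cholesterol and bile acid metabolism had the highest share, 8 of 44 sites (18.2%, 9.51% to 32.0%). *Srebf2*, which encodes the transcription factor that drives the pathway, had a site in intron 1 at chr15:82150313-82150529. *Scap*, the escort protein of that factor, had one in intron 2 at chr9:110357387-110357603. Of the 2 sites nearest to *Stard4*, a sterol transfer protein gene, both lay in exon 11 of the neighboring gene *Camk4* and were called in *Bcl6* fl/fl livers. Other sites of the list were nearest to *Cyp51* and *Insig2*, and at the *Insig2* site the BCL6 and fed PPARα centers were 168 bp apart.

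Insulin signaling and glucose metabolism had 13 lost sites of 139 (9.35%, 5.55% to 15.3%). Beside the 6 at *Pik3r1*, the nearest to a start was 2955 bp upstream of *Pik3ca*, the catalytic subunit of the same kinase, at chr3:32394002-32394218. A site in intron 2 of *Akt1*, the kinase downstream of it, at chr12:112671035-112671251 held a BCL6 and a STAT element and had a *Bcl6* fl/fl call. The site of *Irs2*, an insulin receptor substrate, lay 140569 bp upstream and had a fed PPARδ peak. Only 5 of the 13 lay within 100 kb of their start, and among sites within that reach the share was 5 of 86 (5.81%, 2.51% to 12.9%). Of all 1156 lost sites, 314 lay beyond 100 kb of the nearest start. The 10.6% over all fed shared sites is therefore no background for that reach, and none was computed. Growth hormone and STAT signaling had 8 of 82 (9.76%, 5.03% to 18.1%), and 3 of 58 (5.17%, 1.77% to 14.1%) within 100 kb. *Bcl6* itself had 2, the nearer at chr16:24057151-24057367, 68407 bp upstream, with a *Bcl6* fl/fl call. *Igf1*, the growth hormone target, had one 30615 bp upstream at chr10:87827542-87827758. *Prlr*, the prolactin receptor, had 2, one of them in intron 1 with a DR1 element, and *Ghr*, the growth hormone receptor, had one 137568 bp upstream.

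Nuclear receptors, liver transcription factors and corepressors had 9 of 89 (10.1%, 5.41% to 18.1%). *Ppara* had one 65914 bp upstream, at chr15:85669542-85669758, with a DR1 element, but there the BCL6 and fed PPARα centers were 191 bp apart, near the limit of the rule. *Foxa3* had one in intron 1, and the *Rxra* site was described above. Lipoprotein and fatty acid transport had 5 of 76 (6.58%, 2.84% to 14.5%). *Fabp1*, the liver fatty acid binding protein, had 2 of these, 6335 and 26602 bp upstream, both with a BCL6 and a STAT element. Their BCL6 and fed PPARα centers were 109 and 182 bp apart, against a median of 31.0 bp over the lost sites. *Apoa5* and *Apoa1*, neighboring apolipoprotein genes, and *Abhd2*, a lipase gene, had 1 each. Drug and steroid metabolism had 5 of 64 (7.81%, 3.38% to 17.0%), at *Cyp7b1* (2 sites), *Cyp2e1*, *Cyp2d9* and *Cyp2b10*. At the farther *Cyp7b1* site the BCL6 and fed PPARα centers were 169 bp apart. The circadian clock list had 2 of 50 (4.00%, 1.10% to 13.5%), at *Npas2* and in intron 1 of *Rora*, each with an HNF6 element and a *Bcl6* fl/fl call.

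**Figure D3:**
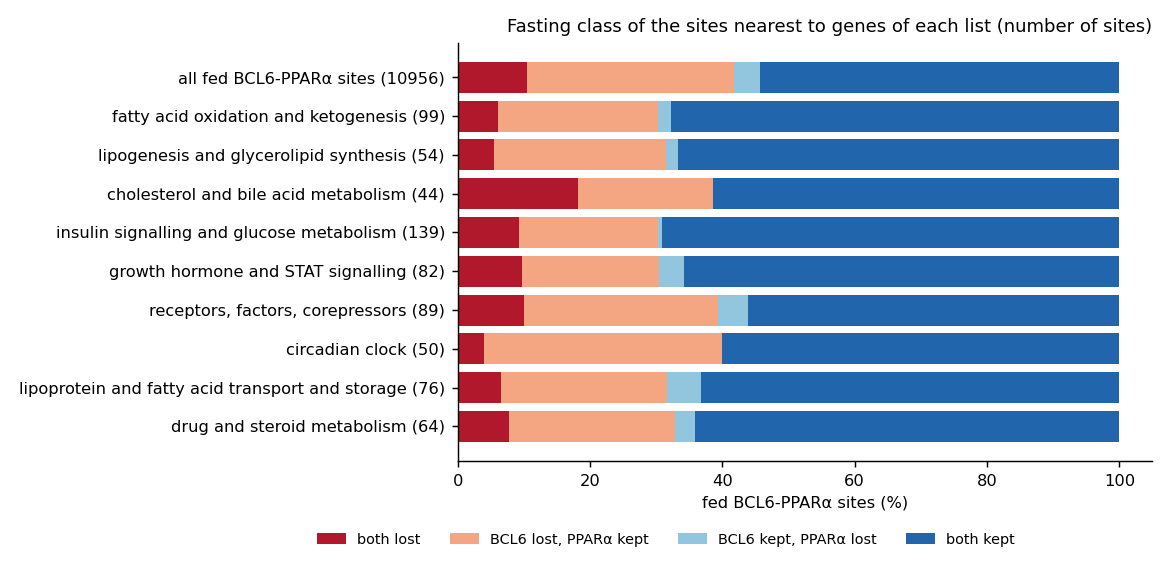
Share of fed BCL6-PPARα sites (%) in each fasting class, for all 10956 sites and for the sites nearest to genes of each list, with the number of sites in parentheses. The red segment, sites that lost both factors, is 10.6% of all sites and lies between 4.00% (circadian clock, 50 sites) and 18.2% (cholesterol and bile acid metabolism, 44 sites).

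The DNA of the lost sites held more BCL6 elements than that of the sites that lost BCL6 alone, and fewer DR1 elements. An element was counted if its letters occurred on either strand of the 217 bases of the fed BCL6 peak, and the same count was made in windows of that length 1000 bp to either side. The BCL6 element was found in 176 lost sites, 15.2% (13.3% to 17.4%), against 8.00% of their flanking windows. Its share was 7.77% (6.92% to 8.72%) where BCL6 only was lost, 13.1% (12.2% to 13.9%) where both were kept and 31.2% (27.1% to 35.8%) where PPARα only was lost, beside 16.6% of all fed BCL6 peaks. An exact TTCCTAGAA stood in 13 lost sites. The STAT element TTCNNNGAA, which every exact BCL6 element contains, followed the same order, with 16.3%, 9.15%, 12.7% and 27.5%. These shares are a description with no test.

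The DR1 element was in 98 lost sites, 8.48% (7.01% to 10.2%), against 3.55% of the flanks. The share was similar where PPARα only was lost, 7.87% (5.69% to 10.8%), and higher where PPARα was kept, 14.2% (13.1% to 15.4%) without BCL6 and 13.4% (12.5% to 14.3%) with it. Both classes that lost PPARα held the fewest DR1 elements. The single hexamer AGGTCA was in 30.8% of the lost sites (28.2% to 33.5%), against 34.6% where BCL6 only was lost and 35.3% where both were kept. In the lost sites, each of these elements lay nearer to the center of its own factor more often than to the other center. In the lost sites with a BCL6 element, it was nearer to the BCL6 center in 113 and nearer to the PPARα center in 60, at median distances of 36.5 and 53.5 bp. A DR1 element was nearer to the PPARα center in 58 and nearer to the BCL6 center in 38, at medians of 37.0 and 47.0 bp. The scan was confined to the fed BCL6 peak, which favors the BCL6 center for any element. The HNF4 element, described below, was nearer to the BCL6 center in 120 lost sites and to the PPARα center in 105. Where BCL6 only was lost, DR1 elements were nearer to the BCL6 center in 235 sites and to the PPARα center in 245. Among the 573 lost sites called in *Bcl6* fl/fl livers, 17.5% held a BCL6 element (14.6% to 20.8%), 18.3% a STAT element (15.4% to 21.7%) and 9.08% a DR1 element (6.99% to 11.7%).

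An element of HNF6, the product of *Onecut1*, was found in a higher share of the lost sites than of each other class, with intervals that overlapped only for the sites that lost PPARα alone. TATTGAT stood in 193 of them, 16.7% (14.7% to 19.0%), against 9.94% (8.98% to 11.0%) where BCL6 only was lost, 11.6% (8.89% to 14.9%) where PPARα only was lost, 11.3% (10.6% to 12.2%) where both were kept, and 12.0% of all fed BCL6 peaks. Flanking windows held it in 2.66% to 3.82% in the 4 classes. The lost sites were also poorer in GC, with a median of 41.5% (quartiles 38.2% and 45.2%) against 45.2% where both were kept. The median was 44.7% where BCL6 only was lost. At sites that lost PPARα only it was 42.2%, so low GC content was not particular to the lost sites. Among sites within those quartiles of GC content the HNF6 shares were 16.6% for the lost sites (13.9% to 19.8%), 12.2%, 11.1% and 13.0%, so the gap to the sites that lost BCL6 only and to the kept sites was smaller at like GC content. Among sites called in *Bcl6* fl/fl livers the shares were 19.4% (16.3% to 22.8%) for the lost sites and 10.5%, 12.0% and 11.8% for the others. The HNF6 element was singled out after the shares of the 13 elements were seen, and its shares were compared with no test. HNF6 was not mapped in the lists used here, and 2 lost sites lay nearest to *Onecut1* itself, 168749 and 257223 bp upstream.

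Other liver elements separated the classes less. The HNF4 element CAAAGTCCA, with at most 1 mismatch, was in 19.7% of the lost sites and in 21.3% to 23.0% of the other classes, against 6.53% of the flanks of the lost sites. The FOXA element TGTTTAC was in 10.9% of the lost sites and 10.9% of the kept ones. The C/EBP element TTGCGCAA, with at most 1 mismatch, was in 11.6% of the lost sites (9.87% to 13.6%) and 14.8% of the kept ones (13.9% to 15.7%). Its share was 11.9% where BCL6 only was lost and 11.8% where PPARα only was lost. The cAMP response element TGACGTCA, with at most 1 mismatch, was in 6.14% of the lost sites (4.90% to 7.68%) and 8.41% of the kept ones (7.73% to 9.14%), against 4.80% and 4.84% of the flanks. Its share was 7.95% where BCL6 only was lost and 5.32% where PPARα only was lost. The E-box CACGTG, the SREBP element TCACCCCAC with at most 1 mismatch, the ETS element CCGGAAG and the glucocorticoid receptor element, with at most 2 mismatches, were each in under 5% of the lost sites. Counting all 13 elements, 243 of the lost sites (21.0%) held none, 397 held 1 and 312 held 2.

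**Figure D4:**
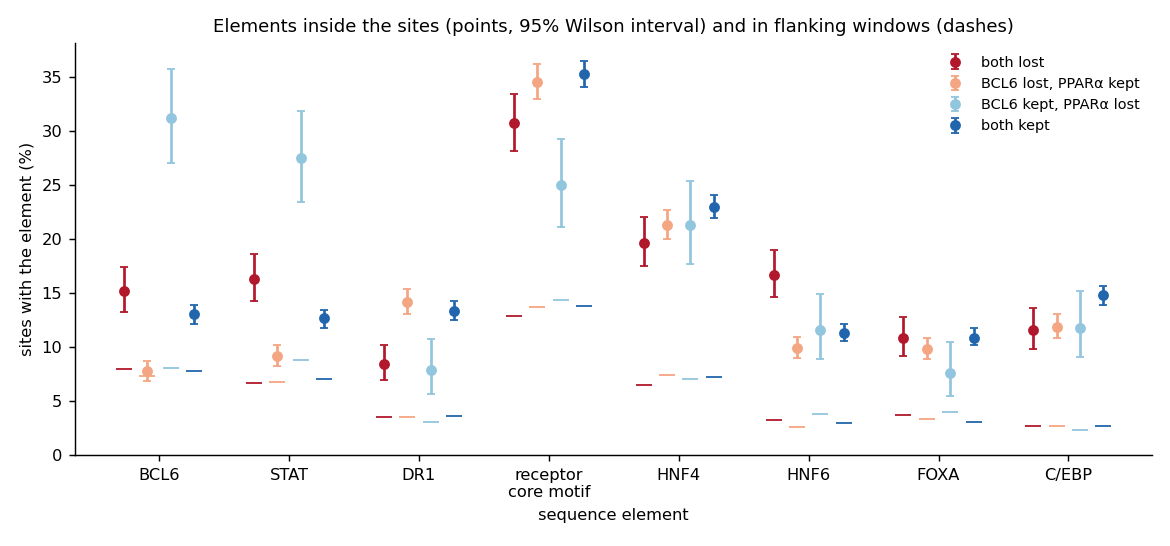
Share of sites (%) holding each of 8 sequence elements inside the fed BCL6 peak, by fasting class, as points with 95% Wilson intervals, with dashes for windows of the same length 1000 bp to either side. Sites that lost both factors lie highest of the 4 classes for the HNF6 element (16.7%), between the other classes for the BCL6 element (15.2%), and with the sites that lost PPARα only for the DR1 element (8.48% and 7.87%).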

How the data were processed

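ChIP-seq of BCL6, PPARα and PPARδ gave the 7 deposited lists used here, each made by the authors from 3 mouse livers. The authors used Bowtie for alignment to mm10, with reads of a single genomic place and 1 read per start, then HOMER for a first set of peaks over input from the combined replicates, and DESeq2 for the enrichment and false discovery rate that a peak had to pass. The deposited values are the start and end positions of peaks in bp, here read as 1-based and inclusive, with no count or score. The depth per library is therefore unknown in both feeding states. The peaks within a list have 1 width, between 192 and 222 bp.

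Centers were matched within 200 bp, the distance the study used. PPARα was matched from the fed BCL6 center. The 1156 sites were compared with the 3 other classes for 4 readouts the rule did not use, with Fisher's exact test (two-sided), and p-values were adjusted over the 12 comparisons by the Benjamini-Hochberg method. Intervals are 95% Wilson intervals and cover counting error only. Positions, genes and sequences came from RefSeq on GRCm38, the assembly of mm10, with curated transcripts only. A site's gene was that of the nearest protein-coding start within 1 Mb. The 13 elements were scanned on both strands. The sites, the 9 gene lists and the elements were chosen with earlier results of these data known. Named genes were the 5 with most sites and, per list, up to 4 whose sites lay nearest to the start, and sequences were up to 8 sites with both elements in the *Bcl6* fl/fl list, nearest to a start first, not on chromosome 18 and clear of exons. Other genes are named as chosen after their values were seen or to complete a list. The functions were tested on simulated data. Alternatives covered the matching distance, interval overlap, the PPARα anchor, chromosomes, close peaks, promoter window, transcripts, scan window, mismatches and reach. Samples without a peak list were not used here, and some named genes are not reported here. The work used Python 3.11.15, NumPy 2.4.6, pandas 2.3.3, SciPy 1.17.1 and matplotlib 3.10.9.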

Additional observations from a re-analysis of the deposited data

How the results depend on the processing

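The number of sites was 1218 with centers matched within 100 bp, 1130 within 400 bp, 1154 by interval overlap of at least 1 bp, 1142 with the fasted PPARα condition also measured from the fed PPARα center, and 1140 on autosomes, against 1156. Of 78 planned comparisons with an alternative, 71 kept their direction and side of the threshold or stayed within the interval, and none reversed. Within 100 bp, the odds ratios of the lost sites against those that lost PPARα only passed the test for fed PPARδ (0.534, adjusted p = 9.73e-05 by Fisher's exact test) and fasted PPARδ (0.229, adjusted p = 0.00221 by Fisher's exact test), where they did not pass within 200 bp, and the cause was not tested. The share of lost sites with the BCL6 element was 3.63% in the central 50 bp and 1.12% with no mismatch, and that with the DR1 element was 1.56% in the central 50 bp and 1.12% with 1 mismatch, since each alternative counts fewer matches by construction. A promoter window from 5000 bp upstream to 1000 bp downstream moved the promoter odds ratio from 0.293 to 0.662 against sites that lost BCL6 only and from 0.334 to 0.648 against sites that kept both, still past the test. Against sites that lost PPARα only the promoter difference passed with neither window. With a reach of 100 kb the list shares fell to 5.17% for growth hormone and 5.81% for insulin signaling, and no background share was computed at that reach. The share of lost sites whose gene kept a shared site was 47.7% of 837 with a reach of 100 kb. Of 17 comparisons added after seeing the data, 14 did not move. Those that moved were the HNF6 element in the central 50 bp (6.14%) and, at sites in the *Bcl6* fl/fl list, the BCL6 element (17.5%) and the HNF6 element (19.4%).

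No paired analysis was possible because each list combines its replicates. For the same reason no run left out a replicate. Peak heights and read counts were not used here, so a site near the calling threshold cannot be told from one far above it, and the lack of a call in fasted livers is not a measured absence of binding.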

Other observations

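Close pairs of lost sites were counted without a matching count for the other classes. Of neighboring pairs of lost sites along a chromosome, 7 were within 1000 bp, 35 within 10000 bp and 142 within 100000 bp. The closest group near a named gene was that of the 3 sites downstream of *Foxa2*.

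In CpG and repeat content, compared with no test, the lost sites were closest to the sites that lost PPARα only. No CpG stood in 18.4% of the lost sites, against 14.9% of the sites that lost BCL6 only, 19.0% of those that lost PPARα only and 14.6% of those that kept both. Repeats took up at least 50% of the bases in 4.15%, 2.78%, 3.70% and 2.86%, in the same order.

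Of genes with 3 or more lost sites beyond the 5 named above, and chosen after their values were seen, *Nrip1*, which encodes the nuclear receptor corepressor RIP140, had 3 lost sites, 8 sites that lost BCL6 only and 2 that kept both. *Aldh1a1*, an enzyme of retinoic acid synthesis, had 3 lost sites and 5 that kept both. *Inhba*, the activin A subunit, had 3 lost sites and 6 that kept both, and *Il15*, a cytokine gene, had 3 and 1.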
